A study of Mus musculus with 24 samples.

Results

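The 57 genes described here encode the machinery with which a cell divides, and they were taken by symbol from a list of mitosis and kinetochore genes, with all 57 found among the 23420 genes of each table. The lungs were whole left lobes of newborn mice, 24 in all, in 8 groups of 3. At postnatal day 2 (P2) and day 5 (P5), 3 mutants of genotype Sox9Cre/+; Vangl2f/f were compared with 3 controls, and at the same ages 3 Sox9Cre/+; Ror2f/f mutants were compared with 3 other controls. The controls are titled Control(Vangl1/2) or Control(Ror2) and carry the genotype entry WT, with no Cre or floxed allele named for them. Cre from the Sox9 locus acts in the distal lung epithelium, where it removes Vangl2, a core protein of planar cell polarity, or Ror2, a receptor for Wnt5a, so the mesenchyme of the lobe is not targeted. Sox9-Cre is also active in organs other than the lung. For the P5 Vangl2 and the P2 Ror2 mutants the genotype entry disagrees with the title, naming Ror2f/f in the former and Vangl2f/f in the latter, and the titles were followed. Nothing in the labels ties a replicate to a litter or a day, so p-values measure the spread between these lungs.

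Mitosis is driven by the kinase Cdk1 and its cyclin partners, after which the spindle attaches to each chromosome at the kinetochore, a protein complex built on the centromere. A checkpoint holds the cell until all chromosomes are attached, and the anaphase-promoting complex then releases the sister chromatids and lets the cell divide. Transcripts of these genes accumulate in G2 and mitosis, so in tissue they are read as markers of dividing cells, and in the lung after birth fibroblasts, endothelial cells and epithelial cells all still divide. In bulk lobes, fewer dividing cells and less RNA per dividing cell cannot be told apart.

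Each value is a normalized count, the reads on a gene divided by a size factor of the lung within its own table of 6 lungs. Depth, recovered as whole reads for 21 of the lungs, ran from 13823693 to 21546673 reads on genes. The lowest value was that of the incomplete lung described next, and the one after it was 16178031 (P5 Vangl2 mutant lung 2). Control lung 1 of the P5 Ror2 table lacked reads on part of the genome: all genes with over 20 normalized counts in the other 5 lungs were at 0 in it on chromosomes 6 to 9 and X, and 602 of 842 on chromosome 5. It was set to missing for the 16 members on chromosomes 5 to 9 and X, which left 2 control lungs there (Ccnb2, Plk1, Foxm1, Cenpa, Cenpn, Spc24, Bub3, Mad2l1, Ttk, Cdca3, Kif15, Kif4, Kif23, Prc1, Anln and Mki67), and 41 members kept all 6 lungs. The targeted genes were measured in whole lobes, mesenchyme included. Vangl2 in the Vangl2 mutants was at 76.8% of the control mean at P2 (log2 fold change -0.39 ± 0.18, SE; limma adjusted p = 0.241) and at 49.6% at P5 (-1.003 ± 0.18; limma adjusted p = 0.0604), with all mutant lungs below all controls at both ages. Ror2 in the Ror2 mutants was at 76.9% of the control mean at P2 (-0.38 ± 0.16; limma adjusted p = 0.250) and at 88.7% at P5 (-0.16 ± 0.20; limma adjusted p = 0.691), and the lungs of the 2 groups overlapped at both ages. The gene not named in the title was read too: Ror2 was at 99.5% (P2) and 73.9% (P5) of the control mean in the Vangl2 mutants, and Vangl2 at 86.3% (P2) and 84.8% (P5) in the Ror2 mutants, with overlapping lungs each time. Neither gene passed the threshold of 0.05 in any table. In the P5 Ror2 mutants Vangl2 stood lower than Ror2 itself, so the transcripts give little check of the Ror2 titles or of the P2 Ror2 genotype entry. In the P5 Vangl2 mutants, whose entry names Ror2f/f, Vangl2 was the lower of the 2 genes and the only one without overlap.

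Promoters of several members are shown first, since genes that peak in G2 and mitosis are known to share short promoter elements, the cell cycle genes homology region (CHR) and the CCAAT box, which are read by the DREAM and MuvB complexes and by NF-Y. RefSeq promoters of 300 bases on GRCm38.p6, 250 before and 50 after the start, were at hand for 46 of the 57 members, and the first one listed was used for the 4 members with more than 1. The letters TTTGAA, on either strand, stood in 37 of the 46 (80.4%) and in 18.1% of the promoters of all 27025 symbols. Within the window from 100 bases before to 50 after the start they stood in 36 members (78.3%) against 8.08% of all. CCAAT, on either strand, stood in 34 (73.9%) against 37.9%, and both elements together in 30 (65.2%) against 7.12%. The CHR variant TTTAAA, which reads the same on both strands, stood in 11 (23.9%) against 13.2%. A match is a run of letters and not a shown binding site. The 7 windows below run 5′ to 3′ on the gene's strand, from 150 bases before the start to 50 after it, with each match to these 3 elements, on either strand, in capitals. They are those of Plk1, Cdk1 and Ccnb1, which drive entry into mitosis, of Cdc20, which starts anaphase, of Mki67 and Top2a, which act on mitotic chromosomes, and of Bub3, the member whose level differed least at P2.
Plk1: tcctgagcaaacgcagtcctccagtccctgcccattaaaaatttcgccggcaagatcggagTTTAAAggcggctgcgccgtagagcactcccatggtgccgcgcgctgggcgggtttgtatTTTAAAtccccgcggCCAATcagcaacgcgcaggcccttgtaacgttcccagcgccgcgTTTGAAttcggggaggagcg
Cdk1: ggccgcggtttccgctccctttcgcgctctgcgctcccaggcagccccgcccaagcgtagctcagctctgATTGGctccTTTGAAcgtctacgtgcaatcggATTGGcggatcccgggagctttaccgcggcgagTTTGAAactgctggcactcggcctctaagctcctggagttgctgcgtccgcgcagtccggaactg
Ccnb1: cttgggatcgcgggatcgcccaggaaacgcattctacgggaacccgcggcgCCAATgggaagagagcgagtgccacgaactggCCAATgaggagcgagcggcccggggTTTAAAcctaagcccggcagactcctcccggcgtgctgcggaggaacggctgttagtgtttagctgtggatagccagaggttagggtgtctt
Cdc20: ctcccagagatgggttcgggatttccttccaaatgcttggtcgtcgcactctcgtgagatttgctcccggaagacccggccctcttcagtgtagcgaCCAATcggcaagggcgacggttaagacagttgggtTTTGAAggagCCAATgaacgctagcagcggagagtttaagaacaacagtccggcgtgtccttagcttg
Mki67: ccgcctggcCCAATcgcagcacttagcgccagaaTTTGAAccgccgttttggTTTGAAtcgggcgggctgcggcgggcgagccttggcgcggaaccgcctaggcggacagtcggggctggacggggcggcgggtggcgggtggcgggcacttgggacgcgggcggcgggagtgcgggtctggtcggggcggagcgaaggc
Top2a: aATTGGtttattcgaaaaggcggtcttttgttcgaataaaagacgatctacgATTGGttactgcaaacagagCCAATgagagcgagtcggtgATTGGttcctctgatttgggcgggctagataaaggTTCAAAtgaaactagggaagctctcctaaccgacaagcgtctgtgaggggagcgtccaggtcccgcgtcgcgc
Bub3: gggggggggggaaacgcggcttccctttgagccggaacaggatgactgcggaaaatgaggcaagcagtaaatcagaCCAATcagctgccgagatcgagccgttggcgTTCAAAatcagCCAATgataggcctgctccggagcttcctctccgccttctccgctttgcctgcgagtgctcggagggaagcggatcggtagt

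The windows lie on GRCm38.p6 at chr7:122159285-122159484 (Plk1, plus strand), chr10:69352863-69353062 (Cdk1, minus strand), chr13:100786437-100786636 (Ccnb1, minus strand), chr4:118437294-118437493 (Cdc20, minus strand), chr7:135716330-135716529 (Mki67, minus strand), chr11:99024140-99024339 (Top2a, minus strand) and chr7:131560220-131560419 (Bub3, plus strand). In these windows Ccnb1 held the TTTAAA form with 2 CCAAT boxes upstream, and Cdk1 and Mki67 held TTTGAA at 2 places each. Bub3 held both elements too, so the letters alone did not part it from the others. Among members with a promoter, the median log2 fold change in the P2 Vangl2 comparison was -1.71 with TTTGAA and -1.80 without it, and in the P2 Ror2 comparison -1.81 and -1.78.

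At P2 the division genes were lower in Vangl2 mutant lungs across the whole set. Of the 57 members, 55 fell (limma adjusted p under 0.05) and 0 rose, while 2.09% of the 17448 genes tested fell and 1.5% rose. The median log2 fold change of the members was -1.72, which as a fold is 30.4% of the control level, against 0.00 over all genes tested. Members ranged from -2.25 (Ska1) to -0.45 (Bub3), and 56 of them had a mutant mean under 50% of the control mean. In all 57 the 3 mutant lungs lay below the 3 control lungs, which holds for 14.9% of all genes tested. Cenpk (limma adjusted p = 0.0800) and Bub3 (limma adjusted p = 0.0669) did not pass. The count of calls rested on few lungs: it was 0 without control lung 2, without control lung 3 or without mutant lung 2, 30 without control lung 1 and 49 without mutant lung 1. Over all genes, calls were 1 without control lung 2 or control lung 3, 29 without mutant lung 2 and 115 without control lung 1. A fit that shared its spread with the 6 P2 Ror2 lungs called 1 member and 50 genes in all. The median stayed between -1.97 and -1.48 whichever lung was left out.

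**Figure D1:**
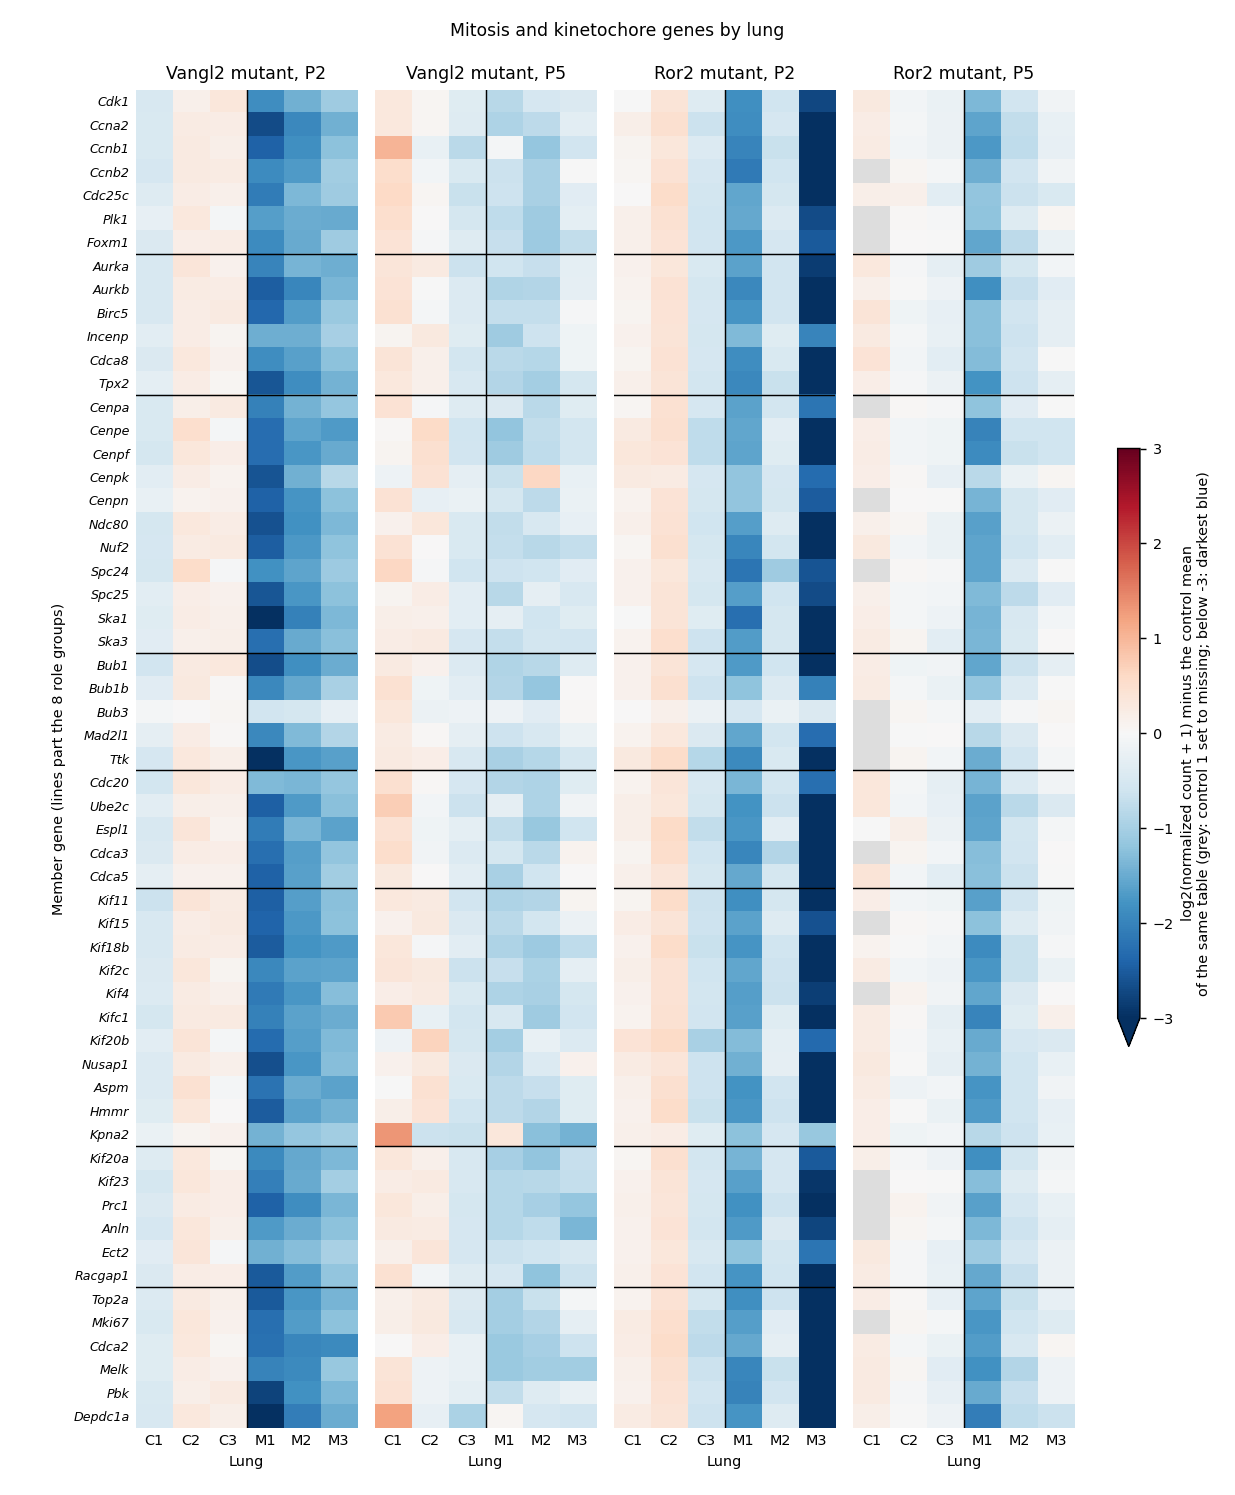
Each row is 1 of the 57 members and each column 1 lung (C1 to C3 control, M1 to M3 mutant), in 4 panels for the 4 tables. Colour gives log2(normalized count + 1) minus the control mean of the same table, and values below -3 take the darkest blue. Mutant lungs 1 to 3 of the P2 Vangl2 table are blue in every row, Ror2 mutant lung 3 is the darkest column at P2, and Bub3 is the palest row in both P2 tables.

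At P2 the members were lower in the Ror2 mutants as well, with a wider spread between lungs. The median log2 fold change of the members was -1.81, which as a fold is 28.6% of the control level, and the members ranged from -2.35 (Melk) to -0.38 (Bub3), with -0.01 as the median of all genes tested. A log2 fold change averages lungs on the log scale and weighs low lungs more than the ratio of group means does. By that ratio, which is the one given for single genes, the members summed stood at 37.99% of control in the Ror2 and at 32.6% in the Vangl2 mutants at P2, and the lowest Ror2 member was Spc24 at 27.6%. None of the 57 passed in limma (0 genes of 17541 did, 0.0%), at adjusted p from 0.203 to 0.271. At an unadjusted p under 0.05 there were 55 members, against 9.71% of all genes that were lower at that level. On the recovered reads, edgeR called 0 members and DESeq2 called 10 (2.33% of the genes it tested fell). The median standard error of a member was 0.64 here and 0.28 in the P2 Vangl2 comparison. In 30 members all mutant lungs lay below all controls (12.2% of all genes), and in each of the other 27 it was mutant lung 2 alone that exceeded a control. Without mutant lung 2, limma called 39 members (2.37% of all genes), and without mutant lung 3 the median was -1.09.

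The lungs moved as blocks, with nearly all members high or low in the same lung. In the P2 Vangl2 table the median member stood at 74.0%, 119.7% and 111% of the control mean in control lungs 1 to 3 and at 20.7%, 31.7% and 42.1% in mutant lungs 1 to 3. Control lung 1 was the lowest control in 57 of 57 members, and mutant lung 1 the lowest lung in 55. In the P2 Ror2 table the medians were 109.9%, 134% and 68.1% in the controls and 31.6%, 69.4% and 10.7% in the mutants. Ror2 control lung 3 was the lowest control in 57 members, mutant lung 2 the highest mutant in 57, and mutant lung 3 the lowest lung in 55. The median over members of the SD of log2 values between mutant lungs was 0.52 in the P2 Vangl2 and 1.36 in the P2 Ror2 table, and between their controls 0.39 and 0.51. Over all genes with more than 20 normalized counts the same medians were 0.21 and 0.16 in the mutants and 0.11 and 0.13 in the controls. The members' medians were the higher ones in both groups of both tables.

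**Figure D2:**
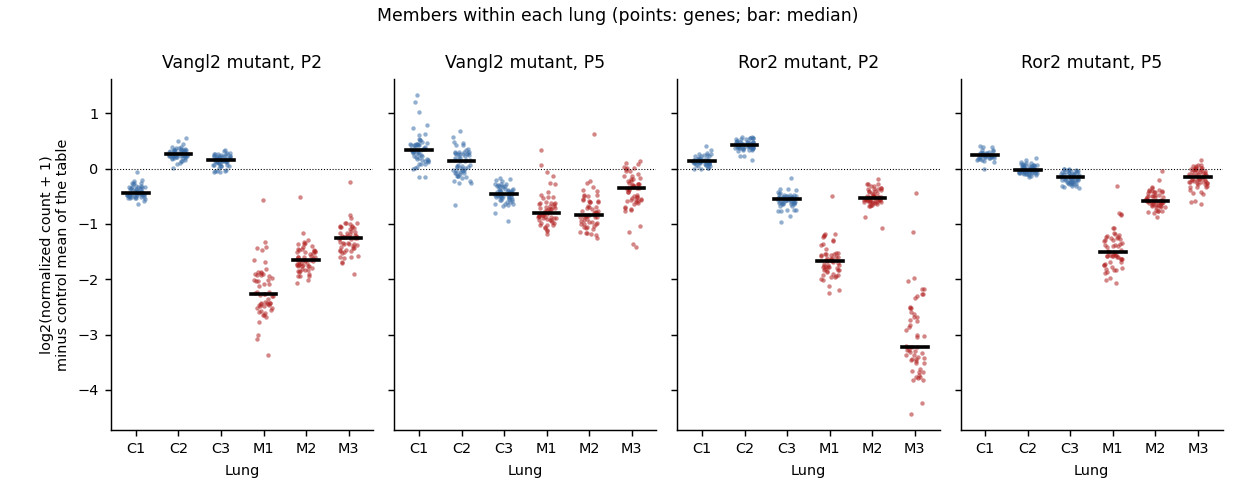
Each point is 1 member in 1 lung, as log2(normalized count + 1) minus the control mean of its table, and the bar is the median of the members in that lung (57, or 41 in control lung 1 of the P5 Ror2 panel). At P2 the 3 Vangl2 mutant lungs lie below all controls, while Ror2 mutant lung 2 lies at the level of control lung 3.

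The kinases and cyclins of mitotic entry are described by lung in the order of replicates 1, 2 and 3. Plk1, a kinase of centrosomes and spindle, held 734, 1096 and 838 normalized counts in the P2 Vangl2 controls and 277, 312 and 306 in the mutants. The mutant lungs were close to each other and far below the controls, and Plk1 fell (log2 fold change -1.56 ± 0.16, SE; limma adjusted p = 0.0248). In the P2 Ror2 table it held 770.4, 954 and 461 in the controls and 239, 527 and 108 in the mutants. Mutant lung 2 lay above control lung 3, so those groups overlapped (-1.54 ± 0.55; limma adjusted p = 0.219). Cdk1, the kinase that drives mitosis, held 961, 1506 and 1701 in the Vangl2 controls and 371, 495 and 644 in the mutants (-1.46 ± 0.26; limma adjusted p = 0.0326). Its Ror2 controls held 1241, 1631 and 946 and the mutants 348, 824 and 186. The Cdk1 groups did not overlap in either P2 table, and the Ror2 mutant mean was 35.6% of control. Ccnb1, cyclin B1, fell from 527, 873 and 819 in the Vangl2 controls to 133, 199.6 and 309 in the mutants (-1.83 ± 0.32; limma adjusted p = 0.0326). In the Ror2 lungs it held 706, 848 and 502 in controls and 168, 420.0 and 34.7 in mutants. Ror2 mutant lung 3 stood out as the lowest, and no mutant lung reached the controls. Ccna2, the cyclin of S phase and early mitosis, held 1548, 2528 and 2498 in Vangl2 controls and 334, 555 and 785 in mutants, and was at 25.5% of control. Ror2 control lungs held 2112, 2615 and 1209 of Ccna2 and mutant lungs 513, 1323 and 164. Foxm1, a transcription factor that drives many genes of G2 and mitosis, held 1279, 1978 and 2025 in the Vangl2 controls and 462, 609 and 824 in the mutants (-1.49 ± 0.25; limma adjusted p = 0.0326). It held 1555, 1879.5 and 952 in the Ror2 controls and 427, 989 and 245 in the mutants, which overlapped. The other 2 genes of this group, Ccnb2 (cyclin B2) and Cdc25c (a phosphatase that activates Cdk1), fell in the Vangl2 mutants to 34.3% and 35.9% of the control mean. All 7 fell in that comparison, with a group median of -1.54.

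All 6 genes of the Aurora kinases and the chromosomal passenger complex fell in the P2 Vangl2 mutants, with a median of -1.67. Tpx2, which activates Aurora A on spindle microtubules, held 1776, 2523 and 2257 in the controls and 366, 592 and 804 in the mutants (-1.95 ± 0.27; limma adjusted p = 0.0286). In the P2 Ror2 table Tpx2 held 1842, 2164 and 1122 in the controls and 432, 1029 and 130.3 in the mutants. For Tpx2, as for Prc1 and Nuf2, all mutant lungs lay below all controls in each of the 4 comparisons. The share of all genes for which this holds was not computed. Incenp, the scaffold of the passenger complex, held 1009, 1472 and 1336 in the Vangl2 controls and 453, 452 and 632 in the mutants (-1.31 ± 0.19; limma adjusted p = 0.0289). The Ror2 lungs held 1155, 1382 and 722 and, in mutants, 421, 814 and 265 of Incenp. Here mutant lung 2 passed control lung 3. Aurka and Aurkb (the kinases Aurora A and B), Birc5 (survivin) and Cdca8 (borealin) fell in the Vangl2 mutants to between 26.7% (Aurkb) and 33.1% (Cdca8) of the control mean.

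Of the 11 centromere and kinetochore genes, 10 fell in the P2 Vangl2 mutants (median -1.81). Cenpe, a kinesin that carries chromosomes to the spindle equator, held 635, 1229 and 839 in the controls and 178, 287 and 265 in the mutants (-1.86 ± 0.27; limma adjusted p = 0.0289). Cenpf, a large protein of the outer kinetochore, held 922, 1669 and 1523 in controls against 269.8, 392 and 468 in mutants (-1.85 ± 0.27; limma adjusted p = 0.0289). For both genes the highest mutant lung lay well below the lowest control lung. The Ror2 controls held 865, 1005 and 425 of Cenpe and the mutants 245, 580.3 and 64.1. Cenpf there was 1147, 1212 and 536 in controls and 302, 707 and 95.6 in mutants. In both, mutant lung 2 exceeded control lung 3. The microtubule-binding NDC80 complex (Ndc80, Nuf2, Spc24 and Spc25) stood between 27.0% (Ndc80) and 34.3% (Spc24) of control in the Vangl2 mutants. Ska1 and Ska3, of the Ska complex that tracks microtubule ends, stood at 23.8% and 32.1%, Cenpa, the histone of the centromere, at 34.8%, and Cenpn, of the inner kinetochore, at 29.8%. Cenpk, also of the inner kinetochore, stood at 35.4% (-1.63 ± 0.43; limma adjusted p = 0.0800) and was the gene of this group that did not pass.

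The spindle assembly checkpoint held the member that differed least. Bub3, a partner that brings Bub1 and Bub1b to the kinetochore, held 2184, 2289 and 2378 in the P2 Vangl2 controls and 1537, 1593 and 1920.1 in the mutants. The groups did not overlap, but the mutant mean was still 73.7% of control (-0.45 ± 0.11). The Ror2 comparison gave Bub3 levels of 1967, 2170.0 and 1731 in the controls and 1379, 1702 and 1435 in the mutants, also without overlap. The kinase Bub1 held 429.7, 776 and 798 in the Vangl2 controls and 101, 180.0 and 227 in the mutants (-1.99 ± 0.34; limma adjusted p = 0.0326). Bub1b, also called BubR1, held 700.4, 1097 and 920.4 in controls against 234, 306 and 452 in mutants (-1.48 ± 0.26; limma adjusted p = 0.0326). Mad2l1, the checkpoint protein Mad2 that blocks Cdc20, held 872, 1217 and 1077 in the Vangl2 controls and 275, 417 and 565 in the mutants (-1.38 ± 0.25; limma adjusted p = 0.0338). These 3 and Ttk, the kinase Mps1, fell, Ttk to 24.0% of control. In the Ror2 table Bub1 held 619, 744 and 397 in controls and 175, 377 and 59.9 in mutants. Bub1b there held 858, 1094 and 513 in controls against 338, 585 and 191 in mutants. Mad2l1 held 981, 1130.5 and 667 in Ror2 controls and 304, 614 and 186 in mutants. Bub1b groups overlapped through mutant lung 2, and those of Bub1 and Mad2l1 did not overlap.

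**Figure D3:**
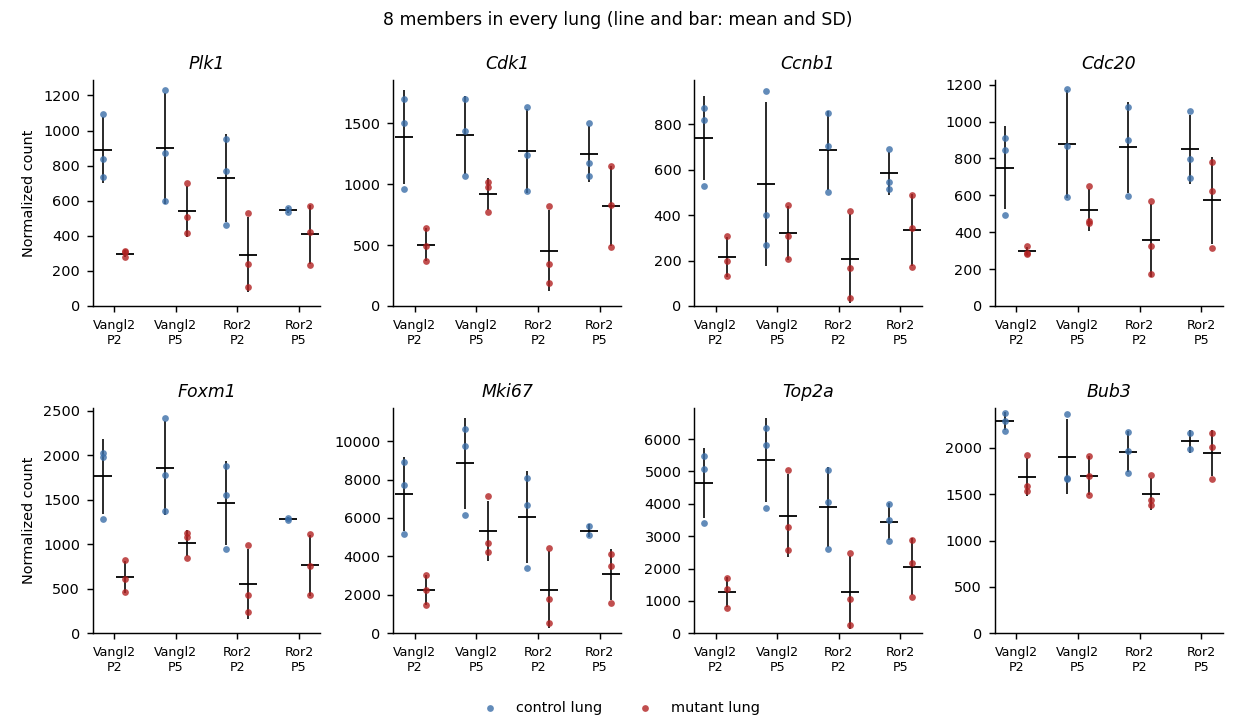
Normalized counts of 8 members in every lung of the 4 tables (blue control, red mutant), with the mean and SD of each group (3 lungs, or 2 controls for Plk1, Foxm1, Mki67 and Bub3 in the P5 Ror2 table). The y axes start at 0 and tables were normalized separately. The P2 mutant lungs of Plk1 and Cdk1 lie well below the Vangl2 controls, whereas Bub3 keeps at least 73.7% of its control mean in each table.

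All 5 genes of anaphase and cohesion fell in the P2 Vangl2 mutants (median -1.70). Ube2c, the ubiquitin-conjugating enzyme of the anaphase-promoting complex, held 1252, 1755 and 1729.7 in the controls and 284, 478 and 657 in the mutants (-1.80 ± 0.29; limma adjusted p = 0.0312). Espl1, the protease separase that cuts cohesin, held 375, 683 and 569.9 in controls against 123, 205 and 172 in mutants (-1.69 ± 0.27; limma adjusted p = 0.0312). Cdca3, a trigger of mitotic entry, held 745, 1170.3 and 1153 in the controls and 207, 317 and 438 in the mutants (-1.71 ± 0.29; limma adjusted p = 0.0326). Cdc20, the activator of the complex, and Cdca5, the cohesion protein sororin, fell to 39.6% and 32.6% of control. The Ror2 controls held 1394, 1562 and 849 of Ube2c and the mutants 355, 781 and 113. Espl1 in that table held 593, 773 and 311 in the controls and 156, 420.0 and 47.3 in the mutants. Cdca3 held 665, 916 and 416 in controls against 163, 344 and 76.7 in mutants. Ube2c and Cdca3 did not overlap between groups, and Espl1 did.

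The spindle motors and other spindle proteins, 11 genes, all fell in the P2 Vangl2 mutants (median -1.77). Kpna2, an importin that holds Tpx2 until mitosis, held 1535, 1879 and 1936 in the controls and 665, 787 and 855 in the mutants (-1.21 ± 0.14; limma adjusted p = 0.0248). Kif2c, a kinesin that shortens microtubules, held 353, 606 and 509 in controls against 124, 156 and 159 in mutants (-1.71 ± 0.22; limma adjusted p = 0.0265). Kif11, the motor Eg5 that pushes spindle poles apart, held 964, 1965 and 1774 in the controls and 274, 473 and 626 in the mutants (-1.79 ± 0.35; limma adjusted p = 0.0391). Kpna2 had the smallest change of the group, to 43.1% of control. The P2 Ror2 lungs of Kpna2 held 1673, 1766 and 1174 in the controls and 642, 1074 and 684 in the mutants, the only member besides Bub3 with a mutant mean above 50% there. Kif2c held 436, 528 and 254 in the Ror2 controls and 132, 253 and 27.3 in the mutants. Kif11 held 1324, 1809.7 and 799 in controls against 346, 866 and 107 in mutants, with overlap through mutant lung 2. The motors Kif15, Kif18b, Kif4, Kifc1 and Kif20b and the spindle proteins Nusap1, Aspm and Hmmr stood between 25.1% (Kif18b) and 30.6% (Kif4) of control in the Vangl2 mutants. The annotation also lists the pseudogenes Ccnb1-ps, Ccnb2-ps, Kif4-ps and Kpna2-ps, and how reads shared with them were counted is not given in the sources used here, so the levels of these 4 members are less certain.

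The 6 genes of the central spindle and cytokinesis fell in the P2 Vangl2 mutants (median -1.56). Prc1, which bundles the microtubules between the separating chromosomes, held 1675, 2711 and 2604 in the controls and 421, 627 and 885 in the mutants (-1.89 ± 0.28; limma adjusted p = 0.0295). Kif20a, a kinesin of the cleavage zone, held 752, 1236 and 1032 in controls against 263, 340.3 and 384 in mutants (-1.60 ± 0.21; limma adjusted p = 0.0265). Racgap1, which forms centralspindlin with Kif23, held 1452, 2304 and 2256 in the controls and 339, 616 and 857 in the mutants (-1.80 ± 0.33; limma adjusted p = 0.0335). Each of the 3 genes was lowest in mutant lung 1. The Ror2 controls held 2067, 2391 and 1298 of Prc1 and the mutants 525, 1216 and 224. Kif20a held 926, 1234 and 606 in the Ror2 controls and 338, 625 and 154 in the mutants. Racgap1 held 1782, 2123 and 1064 in controls against 464, 1046 and 169 in mutants. Only Kif20a of these overlapped between groups. Kif23, Anln, the cortical scaffold anillin, and Ect2, which activates RhoA at the cleavage furrow, stood at 35.1%, 35.3% and 41.9% of control in the Vangl2 mutants.

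Of the genes of mitotic chromosomes, Top2a, the topoisomerase that untangles sister chromatids, held 3405, 5465 and 5070.5 in the P2 Vangl2 controls and 793, 1355 and 1717 in the mutants (-1.89 ± 0.29; limma adjusted p = 0.0300). Mki67, the antigen Ki-67 that coats mitotic chromosomes, held 5165, 8931 and 7714 in controls against 1467, 2235 and 3027 in mutants (-1.72 ± 0.28; limma adjusted p = 0.0326). Cdca2, also called Repo-Man, which brings a phosphatase to chromosomes, held 389, 631 and 523 in the controls and 106, 129.8 and 134 in the mutants (-2.03 ± 0.21; limma adjusted p = 0.0248). Its mutant lungs stood close together at 24.0% of the control mean, and it had the smallest p of the 57. Ror2 lungs at P2 held, for Top2a, 4064, 5061 and 2605 in the controls and 1059, 2469 and 266 in the mutants. Mki67 there held 6688, 8076 and 3398 in controls against 1805, 4463 and 564 in mutants. Cdca2 held 505, 634 and 252 in the Ror2 controls and 149, 358 and 41.0 in the mutants. The Top2a groups did not overlap, and those of Mki67 and Cdca2 overlapped through mutant lung 2. The kinases Melk and Pbk and Depdc1a, a protein of mitotic cells, fell in the Vangl2 mutants to 31.5%, 26.6% and 22.9% of control, the last the lowest share of any member.

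**Figure D4:**
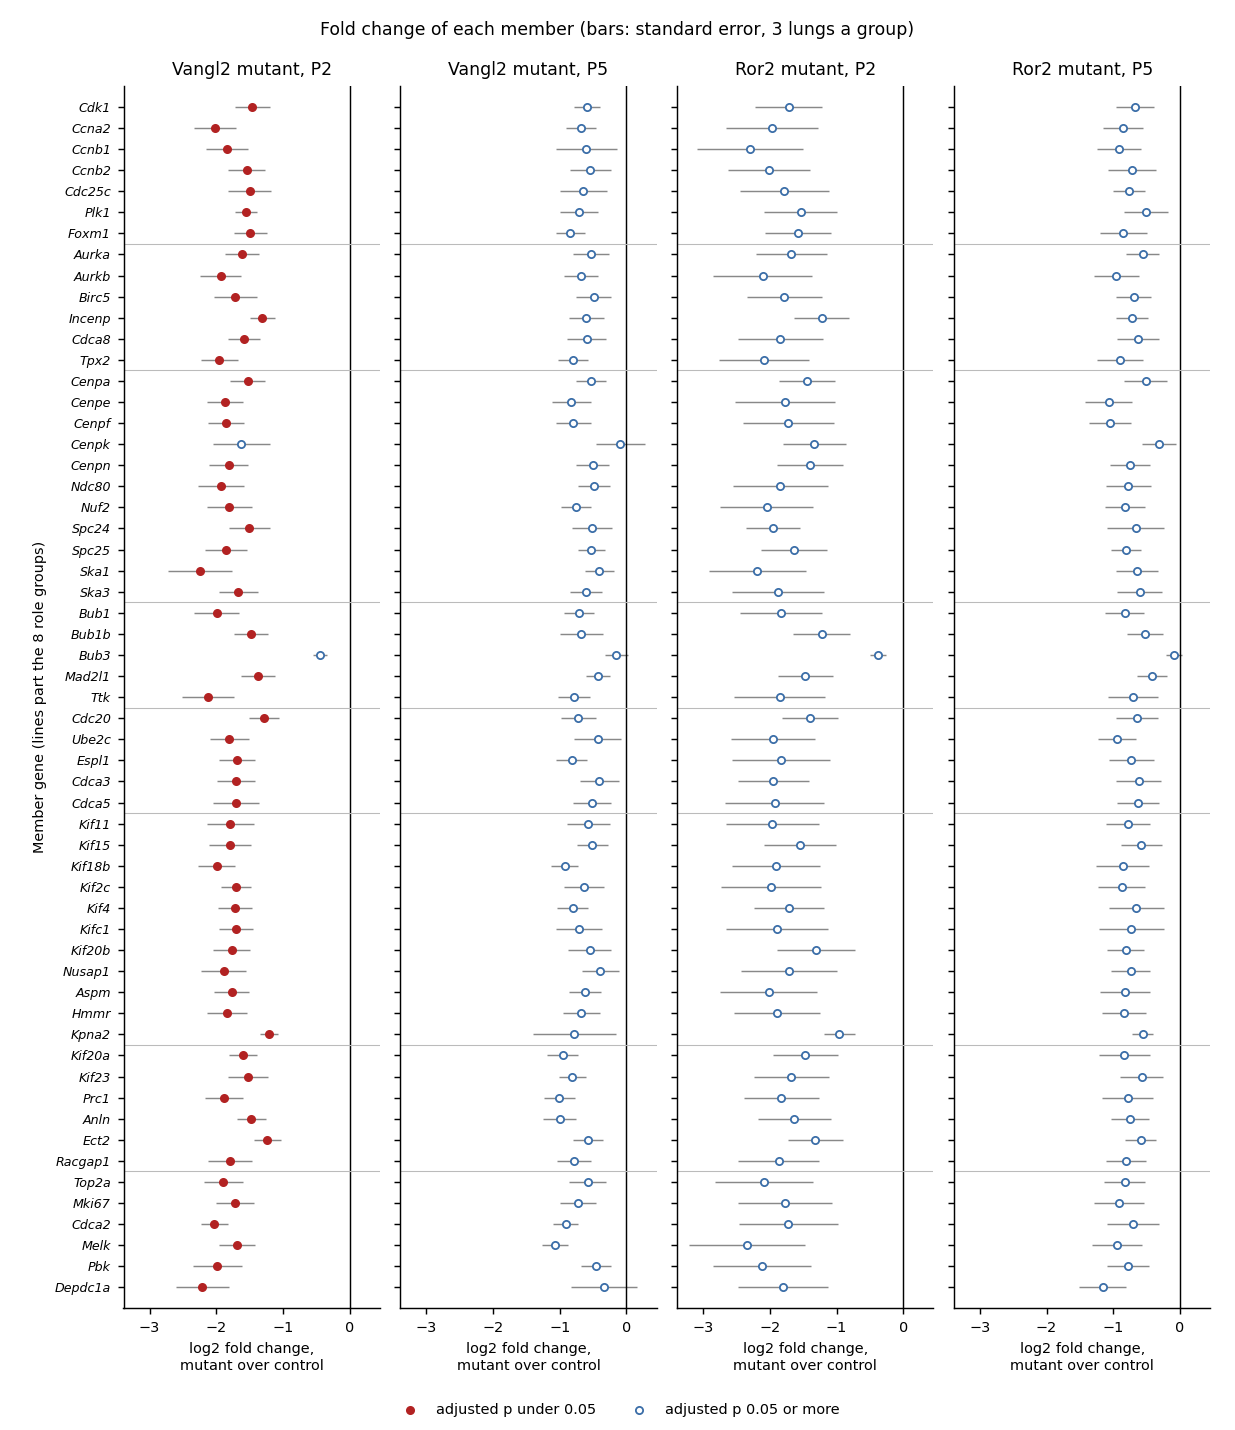
Log2 fold change of each member (mutant over control, bars 1 SE, 3 lungs a group or 2 controls for 16 members of the P5 Ror2 panel) in the 4 comparisons, with filled red points where the limma adjusted p was under 0.05. All points lie left of 0. The 55 filled points are all in the P2 Vangl2 panel, and the bars of the P2 Ror2 panel are longer (median SE 0.64 against 0.28).

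At P5 all 57 members again had log2 fold changes below 0 in the Vangl2 mutants, and the values were closer to 0. The member median was -0.62, as a fold 65.1% of the control level, with a range from -1.07 (Melk) to -0.09 (Cenpk) and 0.00 as the median of all genes. None of the 57 passed in limma (5 of 17410 genes fell, 0.0287%), and 31 had an unadjusted p under 0.05, a level at which 8.35% of all genes were lower. All mutant lungs lay below all controls in 16 members (12.5% of all genes). In 28 of the 41 overlapping members it was mutant lung 3 alone that exceeded a control. The median member stood at 126%, 110.2% and 72.9% of the control mean in the controls and at 57.6%, 56.1% and 78.0% in the mutants, so the lowest control and the highest mutant were near each other.

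Replicate numbers paired the lungs of the P5 Vangl2 table, as lungs with the same number deviated together in all 3 pairs. With the replicate number as a block, limma called 12 members lower, and 3.48% of all genes (1558 genes in both directions, against 98 without the block). The 12 were Anln (adjusted p = 0.00900), Prc1 (0.0150), Melk (0.0201), Kpna2 (0.0212), Kif18b, Foxm1, Cdca2, Racgap1, Kif23, Espl1, Kif20a and Nuf2 (0.0474). Of the 6 genes of the central spindle and cytokinesis, 5 were among them. That group also had the lowest median of the 8 role groups in this table, -0.88 on the log2 scale.

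Among the members with values by lung at P5, Prc1 held 3151, 2818 and 1710.1 in the Vangl2 controls and 1360.0, 1239 and 1114 in the mutants (-1.005 ± 0.23; limma adjusted p = 0.0909 without the block). Kif20a held 1434, 1262 and 813 in controls against 573, 504 and 701 in mutants. Racgap1 held 2378, 1648 and 1336 in the controls and 1217, 753 and 1112 in the mutants. For these 3 genes every mutant lung was below every control. Foxm1 held 2421, 1776 and 1374 in the controls and 1123, 844 and 1077 in the mutants. Cdca2 held 575, 650.1 and 489 in the controls and 263, 284 and 368 in the mutants. Tpx2 held 2670.4, 2384 and 1548 in the P5 Vangl2 controls and 1173, 1065 and 1479.8 in the mutants. These did not overlap either, nor did Espl1 (55.7% of control). The Cdk1 lungs were apart too, with 1703, 1438 and 1065 in the controls and 773, 975 and 1020.5 in the mutants. Plk1 overlapped, with 1229.8, 869.9 and 598 in the controls and 507, 414 and 699 in the mutants. Mki67 held 9728, 10623 and 6166 in the controls and 4226, 4678 and 7117 in the mutants. In both, mutant lung 3 lay above control lung 3. The same held for Top2a, Ccna2, Incenp, Cenpe, Cenpf, Bub1, Bub1b, Mad2l1, Kif11 and Kif2c, whose mutant means stood between 54.4% (Cenpe) and 74.0% (Mad2l1) of control. Bub3 held 2367, 1662 and 1675 in the controls and 1700.0, 1487 and 1915 in the mutants, at 89.4% of control.

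In 8 members replicate 1 was the highest lung of both groups at P5 (Ccnb1, Foxm1, Ska1, Kifc1, Kpna2, Prc1, Racgap1 and Depdc1a). Kpna2 showed it most, with 1749.8, 441 and 435 in the controls and 881, 289.9 and 259 in the mutants. Ccnb1 held 948, 398 and 267 in the controls and 446, 208 and 310.1 in the mutants. Without control lung 1, the log2 fold change of Depdc1a was 0.26. Ube2c and Cdca3, at 70.7% and 75.1% of control, also had their highest control in replicate 1, but their highest mutant in replicate 3.

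In the P5 Ror2 mutants the 57 members were again all below 0, with a median of -0.74, as a fold 59.7% of the control level, and a range from -1.16 (Depdc1a) to -0.10 (Bub3). None passed in limma (16 of 17090 genes fell, 0.0936%). An unadjusted p under 0.05 was reached by 30 members, against 8.39% of all genes at that level with a lower mutant mean. The 41 members with values in all 6 lungs had a median of -0.79 and the 16 with 2 control lungs -0.66. All mutant lungs lay below all controls in 27 members (14.3% of all genes), and in 28 of the other 30 mutant lung 3 alone exceeded a control. Over the 41 members, the medians by lung were 118%, 96.5% and 86.9% of the control mean in the controls and 33.6%, 66.3% and 88.0% in the mutants. Mutant lung 1 was the lowest mutant in 57 of 57 members, and without it the member median was -0.35. With mutant lung 3 left out, 2 of the 57 members and 736 of the 17090 genes tested were called, counting both directions.

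Cenpf, with values in all lungs, held 1279, 1033 and 997 in the P5 Ror2 controls and 296, 689 and 728 in the mutants (-1.05 ± 0.32; limma adjusted p = 0.171). Cenpe held 806, 661 and 640.0 in controls against 172, 463 and 462 in mutants. Ube2c held 1705, 1265 and 1130.2 in the controls and 444, 771 and 1001 in the mutants (-0.94 ± 0.28; limma adjusted p = 0.170). In these the groups did not overlap. Ccnb1 held 690.2, 544 and 516 in the controls and 173, 342 and 488 in the mutants, with mutant lung 3 just under the controls. Nor did the groups overlap in Ccna2, Tpx2, Kpna2, Kif11, Kif2c, Incenp and Bub1, at 58.5% (Tpx2) to 68.6% (Kpna2) of control. Cdk1 held 1505, 1174 and 1069 in the controls and 484, 830.3 and 1148 in the mutants. Top2a held 3995, 3493 and 2866 in the controls and 1136, 2162 and 2896 in the mutants. Both overlapped, since mutant lung 3 was above control lung 3, as it was for Bub1b, Espl1, Kif20a, Racgap1 and Cdca2, at 60.6% (Racgap1) to 72.3% (Bub1b) of control.

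Of the members with 2 control lungs at P5, Mki67 held 5579.8 and 5116 in the Ror2 controls and 1586, 3506 and 4109 in the mutants. Foxm1 held 1297 and 1273 in the controls and 432, 751 and 1116 in the mutants, and Prc1 stood at 62.8% of control. Those 3 did not overlap. Plk1 held 558 and 537 in the controls and 236, 421 and 569 in the mutants. Bub3 held 2154 and 1983 in the controls and 1667, 2006 and 2158 in the mutants. In Plk1 and Bub3, as in Mad2l1 (77.1% of control) and Cdca3 (69.4%), mutant lung 3 lay above control lung 3.

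The contrasts were then compared between ages and between mutants, as differences of log2 fold changes over 12 lungs with each table's own controls. From P2 to P5 the log2 fold change was nearer to 0 in all 57 members of both mutants, with median differences of 1.06 (Vangl2) and 1.05 (Ror2), against 0.02 over all genes in each. None of the 57 passed the test of the difference in limma in either mutant (0 of 17068 and 0 of 16906 genes in all, 0.0% each), and at an unadjusted p under 0.05 there were 42 members for Vangl2 (8.45% of all genes) and 0 for Ror2 (9.52%). Cdca2 had the smallest p for Vangl2, with a difference of 1.12 ± 0.29 (SE; limma adjusted p = 0.577). Between the Vangl2 and Ror2 mutants the median difference of the members was 0.07 at P2 and 0.12 at P5, with standard errors of 0.78 and 0.46 at the median, and no member reached an unadjusted p under 0.05 at either age (4.6% and 4.74% of all genes did), with 0 and 2 genes of all called by limma (0.0% and 0.0119%). The differences between mutants ranged from -0.46 to 0.66 at P2 and from -0.25 to 0.83 at P5, and with these standard errors differences of that size could not be told from 0.

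Other genes of the cell cycle were read from 8 further lists, against a background of 2.09% of all genes tested that fell in the P2 Vangl2 mutants. Of 44 other mitotic genes, 30 fell in the P2 Vangl2 mutants (median -1.52), among them Ckap2l (-1.47 ± 0.18; limma adjusted p = 0.0258), Ckap2 and Knstrn, all of the spindle. Of 8 condensin genes, whose products compact mitotic chromosomes, 7 fell (median -1.24), with Ncapd2 at -1.46 ± 0.19 (SE; limma adjusted p = 0.0265). Of 41 DNA replication genes 31 fell (median -1.28), with Chaf1a, Mcm7 and Rrm1 at -1.24 ± 0.15, -1.04 ± 0.13 and -0.95 ± 0.12. Of 17 genes of the G1 phase 6 fell (median -0.81), led by E2f8, E2f1 and Cdk2. Of the DREAM and MuvB complex, which binds the CHR, 3 of 12 fell (median -0.23): Mybl2, Rbl1 and Tfdp1, at -1.60 ± 0.23, -1.20 ± 0.18 and -0.64 ± 0.10. The cohesin genes (median -0.11) and the anaphase-promoting complex (median -0.32) had 1 gene each that fell, of 12 and 17. These were Esco2, an enzyme that acetylates cohesin in S phase (-1.86 ± 0.30; limma adjusted p = 0.0319), and Fbxo5, the inhibitor Emi1 of the anaphase-promoting complex (-1.35 ± 0.27; limma adjusted p = 0.0414). Most subunits of these complexes are used outside mitosis too.

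Of 16 CDK inhibitors and p53 targets, 2 rose and 1 fell in the P2 Vangl2 mutants (median 0.49), where 1.5% of all genes rose and 2.09% fell. Gadd45b, a stress-induced gene, held 884, 739 and 849 in the controls and 1569, 1190.0 and 1759 in the mutants (0.86 ± 0.16; limma adjusted p = 0.0333). Cdkn1c, the inhibitor p57, held 2847, 2818 and 2826 in controls against 4969.5, 3969 and 3731 in mutants (0.57 ± 0.12; limma adjusted p = 0.0457). Cdkn2c, the inhibitor p18, went the other way, from 347, 472 and 518 in the controls to 74.4, 145 and 205 in the mutants (-1.75 ± 0.35; limma adjusted p = 0.0410). In the P2 Ror2 mutants the median of this list was 0.24, and at P5 it was 0.19 (Vangl2) and -0.15 (Ror2). No gene of the 8 lists passed in the P5 Vangl2 or in either Ror2 comparison. In those 3 the medians were -0.53, -1.48 and -0.58 for the other mitotic genes, -0.43, -1.13 and -0.44 for condensin and -0.36, -1.001 and -0.37 for DNA replication, in the order P5 Vangl2, P2 Ror2 and P5 Ror2.

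**Figure D5:**
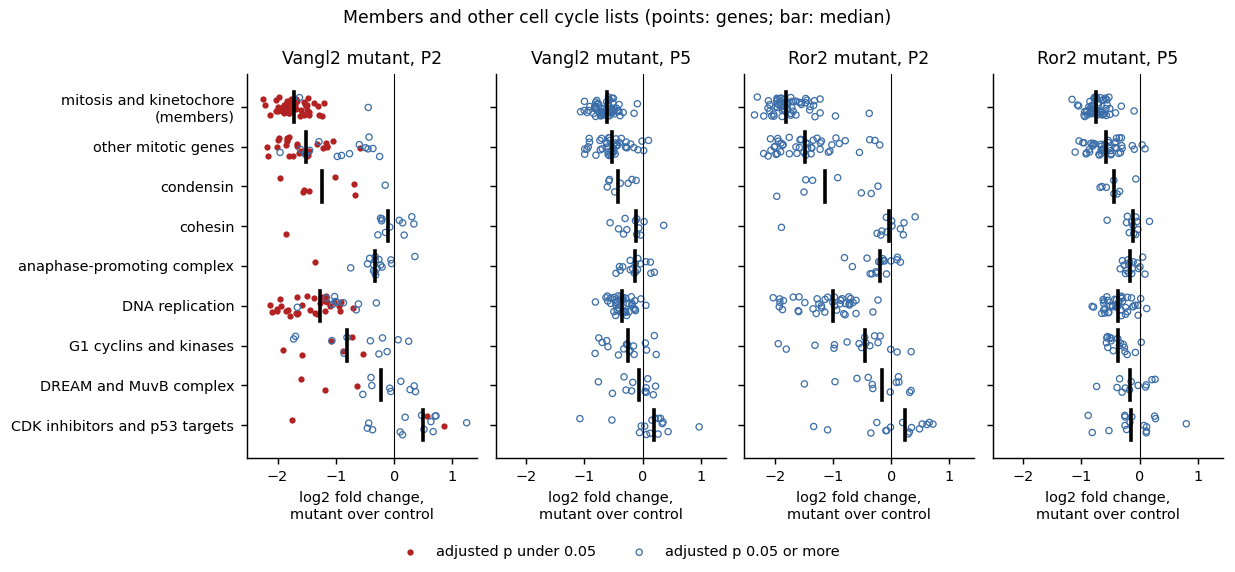
Each point is 1 gene, at its log2 fold change (mutant over control), for the 57 members and 8 other cell cycle lists in the 4 comparisons; the bar is the list's median and red points had a limma adjusted p under 0.05. The other mitotic, condensin and replication lists lie to the left with the members at P2, whereas cohesin and the anaphase-promoting complex lie near 0.

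Markers of other cell types were read as well. The 3 erythroid markers tested had a median of -1.51 in the P2 Vangl2 and -1.90 in the P2 Ror2 mutants, and Alas2, the first enzyme of heme synthesis in red cell precursors, fell in the former from 4662, 2146 and 2296 to 955, 1091 and 945 (-1.51 ± 0.27; limma adjusted p = 0.0326). The sum of 4 erythroid markers ranged from 2674 to 5134 in the P2 Vangl2 controls and from 1118 to 1640 in the mutants, and from 3424 to 5154 and 1129 to 3654 in the P2 Ror2 table, with Hba-a1 at 0 in all lungs of both Vangl2 tables. At P5 the erythroid medians were -0.61 (Vangl2, 3 markers tested) and -0.37 (Ror2, 4 markers tested). The P5 Ror2 markers ranged from -1.02 to 0.87, and in 1 of them all mutants lay above all controls. In the P2 Ror2 table Slc4a1, the anion exchanger of the red cell, held 765, 953 and 845 in the controls and 159, 471 and 155 in the mutants. Of 4 neutrophil markers 3 rose in the P2 Vangl2 mutants (median 1.64; sums from 1560 to 2353 in controls and 4184 to 7535 in mutants), where 1.5% of all genes rose, and 2 at P5 (median 1.78), where 0.534% did. In the Ror2 mutants no neutrophil marker passed, with medians of -0.05 at P2, where the control sums ran from 2504 to 16791, and 0.35 at P5. At P5 the endothelial and the fibroblast and myofibroblast markers had medians of -0.61 and -0.59 in the Vangl2 and -0.14 and -0.42 in the Ror2 mutants, and at P2 -0.07, -0.19, 0.17 and -0.07 in the same order. The 5 markers of alveolar type I cells had medians of 0.46 and 0.41 at P2, with all 5 above 0 in both mutants. Those of alveolar type II cells had medians of 0.41 and 0.28. In the P2 Vangl2 mutants 1 marker of each of these 2 types rose (1.5% of all genes did). Of the fibroblast and myofibroblast markers 1 fell there (2.09% of all genes did), with a range from -0.76 to 1.10. Their sum ran from 115079 to 138671 in the controls and from 140885 to 244152 in the mutants. At P5 the medians were 0.20 and 0.13 for type I and 0.44 and -0.18 for type II cells (Vangl2 and Ror2 mutants, as in what follows). The 5 motile cilium markers had medians of 0.65 and -0.08 at P2 and of 1.15 and 1.40 at P5, and none passed in limma. The 5 macrophage markers had medians of 0.33 and -0.43 at P2 and of 0.62 and 0.04 at P5, and none of these passed either. The lymphocyte markers had medians of -0.53 and -0.09 at P2 and of -0.16 and 0.16 at P5. The part of these cell types in the levels of the 57 members was not tested.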

How the data were processed

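Left lung lobes were sequenced as bulk RNA, and 4 tables of 23420 genes were deposited, 1 for each pair of control and mutant groups. The deposited values are a signal, gene counts that the authors divided by DESeq2 size factors within each table (mm10, per the submitters' processing notes); the aligner, counter and use of strand are not given in the sources used here. The deposited log2 fold changes, test scores and p-values of the authors' own comparisons were not used.

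Genes with at least 1 normalized count in at least 3 lungs were tested in each table on log2(normalized count + 1) with limma 3.58.1 (R 4.3.3, mean-variance trend, Benjamini-Hochberg adjustment, threshold 0.05). The scale understates the change of low genes. Differences between contrasts were fitted over the 12 lungs of both tables. In the P2 tables all values came out as whole reads within 0.02 (100.0%), and the recovered reads were tested with edgeR 4.0.16 (641 genes called for Vangl2, 0 for Ror2) and DESeq2 1.42.0. The fits were also run on simulated counts with genes drawn independently of each other, which lack the shared movement of the members within lungs. The members, role groups and other lists were chosen with earlier results of these data known. Values by lung are given (all at P2, part of them at P5), for each role, for the 2 members of highest mean and the 2 of lowest limma p in the P2 Vangl2 table, and for Plk1, Cdk1, Ccnb1, Mki67, Top2a, Foxm1 and Bub3. Other lists are given by counts, medians and up to 3 genes of lowest p there, and a few cell type markers were named after their values were seen. Of 213 other listed symbols, 4 were not matched. Replicate numbers were taken from the titles, which do not say that they pair lungs. In the P5 Vangl2 table the deviations of same-numbered lungs correlated at 0.38, 0.34 and 0.24. With 3 lungs a group, an exact permutation test of 1 gene cannot give p under 0.1. Alternatives changed the pseudocount, filter, scaling, tool, block, lungs in the fit and the lungs left out.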

Additional observations from a re-analysis of the deposited data

How the results depend on the processing

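The direction of the member medians held under every alternative run: leaving out 1 lung at a time, they ranged from -1.97 to -1.48 (P2 Vangl2), -0.87 to -0.47 (P5 Vangl2), -2.46 to -1.09 (P2 Ror2) and -1.03 to -0.35 (P5 Ror2). Counts of calls did not hold, and the cause was not tested. With 1 lung left out, members called ranged from 0 to 57 (P2 Vangl2, against 55), from 0 to 39 (P2 Ror2) and from 0 to 2 (P5 Ror2), and were 0 each time for P5 Vangl2. Genes called ranged from 1 to 2308 (P2 Vangl2, against 626), 0 to 53 (P5 Vangl2, against 98), 0 to 849 (P2 Ror2, against 0), 0 to 736 (P5 Ror2, against 31) and 0 to 4 (difference between mutants at P5, against 2). Fitted over the 12 lungs of an age, the P2 Vangl2 comparison called 50 genes and 1 member, the P5 Vangl2 comparison 1013 genes and the P5 Ror2 comparison 3 genes. DESeq2 called 2001 genes in the P2 Vangl2 comparison and, in the P2 Ror2 comparison, 794 genes and 10 members. Scaling to equal totals gave 193 genes in the P5 Vangl2 comparison and moved Cenpk there to 0.0036 (log2). With the replicate block 12 members and 1558 genes were called in the P5 Vangl2 comparison. In the other tables same-number correlations were lower, from -0.09 to 0.21, although each P2 Ror2 mutant lung also correlated best with the control of its own number. There the block gave 56 members (P2 Vangl2), 1 gene (P2 Ror2) and 1 gene (P5 Ror2), and moved Bub3 to 0.0098 in the P5 Ror2 comparison. With the block, limma adjusted p of the members in the P2 Ror2 comparison ran from 0.0603 to 0.0867. Leaving out 1 lung at a time, Cenpk in the P5 Vangl2 comparison ranged from -0.45 to 0.20 (0.20 without mutant 1 and 0.12 without control 2), Bub3 from -0.24 to 0.020 and Depdc1a from -0.81 to 0.26 (both highest without control 1), and Bub3 in the P5 Ror2 comparison from -0.18 to 0.0098 (without mutant 1). With P5 Ror2 control 1 kept as deposited, where its missing reads are zeros, 1 gene was called and log2 fold changes turned to 2.46 (Ccnb2), 2.52 (Plk1), 2.59 (Foxm1), 2.08 (Cenpn), 1.88 (Spc24), 3.57 (Bub3), 2.82 (Mad2l1 and Prc1), 2.16 (Ttk), 2.40 (Cdca3), 2.41 (Kif15), 2.39 (Kif4), 2.75 (Kif23), 2.70 (Anln) and 3.22 (Mki67). Cenpa had reads in that lung and was -0.68 with them, an alternative chosen after seeing the data, against -0.51.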
